A study of Mus musculus with 9 samples.

Results

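The insulin-like growth factor (IGF) axis was read in mouse pancreatic ductal adenocarcinoma (PDAC) cells that carried Yap or had lost it. The genes are the ligand Igf1, the receptors Igf1r and Insr, the receptor substrates Irs1 and Irs2, and the binding proteins Igfbp2, Igfbp4, Igfbp5, Igfbp6 and Igfbp7. The list follows their places in the pathway. All 10 were matched to 1 gene each among the 47643 genes counted, and all 10 passed the filter on low counts, which asked for a sum of at least 100 reads over the 9 libraries and left 14105 genes.

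IGF1 and IGF2 are secreted growth factors that bind the receptor tyrosine kinase IGF1R, and insulin binds its close relative INSR. The activated receptors phosphorylate the scaffold proteins IRS1 and IRS2, which dock PI3-kinase and so switch on Akt and mTOR, while Akt keeps the FoxO transcription factors out of the nucleus. The IGF binding proteins hold the ligands in the extracellular space and either shield or deliver them, and proteases such as PAPP-A release the ligand again. In pancreatic tumours IGF1 is known mainly as a product of fibroblasts and macrophages, while the carcinoma cells carry the receptors.

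The cells came from tumours of KPF and KPYYF mice. KPF mice carried Trp53frt/+, Pdx-Flp and R26FSF-CreER/Dual beside a further Flp-dependent allele, and KPYYF mice carried Yapflox/flox in addition, so that this allele, the Trp53 allele, the Flp recombinase and the reporter were common to both groups. Flp under the Pdx promoter acts in the pancreas. Once tumours could be felt, tamoxifen in the diet activated CreER, which turns the reporter from EGFP to tdTomato (Tm) and deletes Yap where it is floxed. GFP+ cells from KPF tumours gave 6 libraries (mice 4269, 4435, 4504h, 4504s, 4515 and 4601), and Tm+ cells from KPYYF tumours gave 3 (mice 4449, 4891 and 4938). The 4504h and 4504s libraries share a mouse number and may not be independent. Per the paper, the sequenced Tm+ cells were isolated from nodules that had relapsed under tamoxifen. Genotype, reporter colour, Yap status and relapse after Yap loss differed together between the groups, so that their parts cannot be told apart. The study used mice of both sexes over a wide range of ages, and the labels give no age for a library.

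Each library held between 8116539 and 9635514 reads on genes. Levels are given as CPM, the read count scaled to library size after TMM scaling, and 3 reads, taken as the limit that a count of 0 allows, correspond to 0.292 to 0.437 CPM depending on the library. These limits cover counting error only. Yap1, the deleted gene, was at 41.8 to 151 CPM in the KPF libraries and at 0.712, 2.84 and 7.12 CPM in the KPYYF libraries, and it fell by 4.79 on the log2 scale (adjusted p = 0.0159 in the edgeR quasi-likelihood fit, Benjamini-Hochberg over all genes tested). That call was lost without KPYYF 4891 (adjusted p = 0.0553) and by limma-voom (adjusted p = 0.0886). All 12 ductal epithelial markers, Krt18 being the most abundant, were found in every library, with a summed level of 3887 to 12765 CPM in KPF and 688 to 2372 CPM in KPYYF cells. A group of 10 acinar markers, led by Ctrb1, summed to 21384 CPM in KPF 4504s and to 6438 CPM in KPYYF 4449, against 68.8 to 1084 CPM elsewhere, and Amy2a5 had no read. A group of 12 immune markers, led by Lyz2, summed to 10894 CPM in KPF 4601 and to between 478 and 2881 CPM in the other libraries. Where leaving out these 3 high-marker libraries together, a choice made after seeing the data, turned a fold change or moved it by over 1.5 times, the value without them is given beside it. Xist, read in female cells, had over 1000 reads in 3 of the 6 KPF and in all 3 KPYYF libraries, so that the sexes were not balanced between the groups. These KPF libraries were 4435, 4504h and 4504s, of which 4504h and 4504s share a mouse number.

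None of the 10 IGF axis genes passed an adjusted p of 0.05 between KPYYF Tm+ and KPF GFP+ cells in edgeR, where 1.1% of all genes tested did (0.305% higher and 0.794% lower). At an unadjusted p under 0.05, 2 of the 10 were lower in KPYYF cells, Igf1 and Igfbp7, and 0 were higher, beside 10% and 6.1% of all genes. DESeq2 placed both Igf1 and Igfbp7 past an adjusted p of 0.05 in the lower direction and 0 of the 10 in the higher direction, beside 6.58% and 1.91% of all genes. The limma-voom fit placed Igfbp7 alone there, 1 lower and 0 higher, beside 0.276% and 0.312% of all genes. The fold changes of 5 genes were positive and those of the other 5 negative, with a median of -0.23 on the log2 scale against -0.07 over all genes tested. The KPF and KPYYF libraries were fully separated for Igfbp7 alone, which is 1 gene in the lower direction where 5.18% of all genes were separated in that direction and 9.1% in either.

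**Figure D1:**
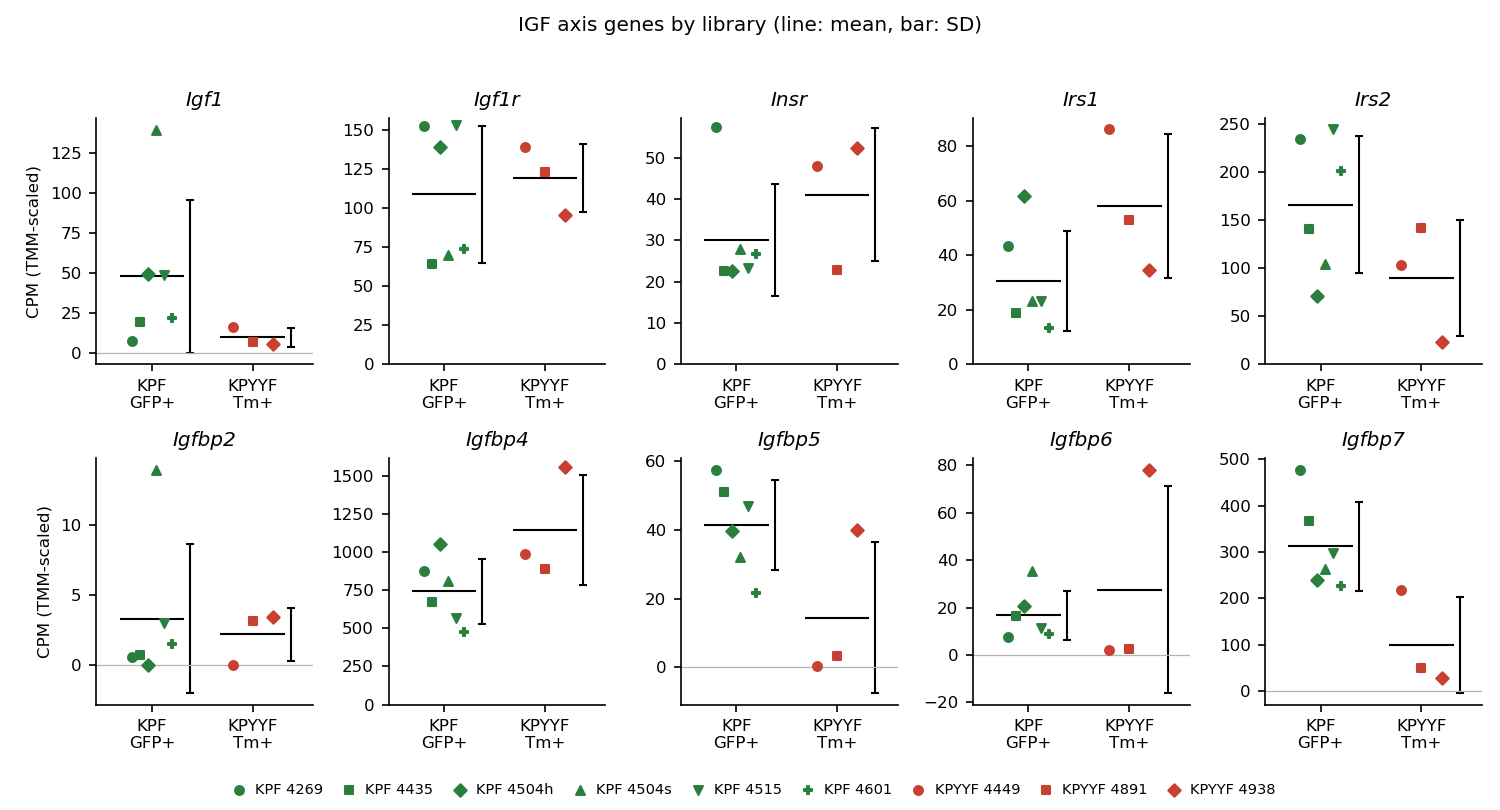
Level of each of the 10 IGF axis genes in CPM after TMM scaling (vertical axis, starting at or below 0) in the 6 KPF GFP+ libraries (green) and the 3 KPYYF Tm+ libraries (red); each symbol is 1 library, the line is the group mean and the bar the SD, which reaches below 0 where it exceeds the mean. The groups are separated for Igfbp7 and overlap for the other 9 genes, and single libraries stand far above the rest of their group for Igf1 and Igfbp2 (KPF 4504s), Insr (KPF 4269) and Igfbp6 (KPYYF 4938).

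Stretches before an annotated start site are shown for 4 of these genes, which differ in the binding motifs tested here. Igf1 and Igfbp7 have the smallest p-values of the 10. Irs1 and Igfbp5 are the genes whose windows hold the motif of the TEAD factors, through which Yap acts on DNA. The Igf1 stretch is not upstream of the whole gene. It lies inside the Igf1 span, which begins at 87858265, and no window at that first base was searched. Each line gives the 250 bases before a start site, 5′ to 3′ on the gene's strand, from RefSeq on GRCm38.p6. Capitals mark matches to the TEAD motif (GGAATG), the AP-1 motif (TGANTCA) and the Sp1 motif (GGGCGG) on either strand.
Igfbp7, chr5:77408046-77408295, minus strand: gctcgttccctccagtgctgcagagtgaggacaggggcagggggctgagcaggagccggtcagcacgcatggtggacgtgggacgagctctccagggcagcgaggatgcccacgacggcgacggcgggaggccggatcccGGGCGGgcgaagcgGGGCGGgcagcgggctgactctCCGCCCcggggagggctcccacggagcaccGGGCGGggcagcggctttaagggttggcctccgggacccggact
Igf1, chr10:87860861-87861110, plus strand: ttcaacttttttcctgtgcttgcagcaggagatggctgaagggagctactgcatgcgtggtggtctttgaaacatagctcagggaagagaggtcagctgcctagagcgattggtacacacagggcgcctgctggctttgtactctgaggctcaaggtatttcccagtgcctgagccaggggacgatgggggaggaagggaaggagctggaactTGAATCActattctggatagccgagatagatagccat
Irs1, chr1:82291440-82291689, minus strand: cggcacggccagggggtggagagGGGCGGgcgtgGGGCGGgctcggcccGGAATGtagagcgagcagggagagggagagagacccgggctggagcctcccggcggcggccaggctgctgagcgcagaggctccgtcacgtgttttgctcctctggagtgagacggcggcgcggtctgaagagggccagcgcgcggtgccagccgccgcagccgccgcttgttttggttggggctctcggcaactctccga
Igfbp5, chr1:72874866-72875115, minus strand: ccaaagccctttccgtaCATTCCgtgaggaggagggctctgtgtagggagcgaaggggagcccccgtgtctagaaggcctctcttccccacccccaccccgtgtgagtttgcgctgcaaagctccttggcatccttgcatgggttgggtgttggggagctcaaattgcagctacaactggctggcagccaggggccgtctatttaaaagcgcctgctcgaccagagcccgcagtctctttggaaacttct
Of the 10 genes, 9 had a window in the table, Igfbp2 having 2 of them, so that 10 windows were searched. The TEAD motif stood in 2 of these 10 windows, at -201 in Irs1 and at -233 in Igfbp5, and in 14.7% of all 32851 promoter windows of 300 bases. The AP-1 motif stood in 2, as TGAATCA at -37 in Igf1 and as TGAGTCA at -39 in the second Igfbp2 window, against 7.81% of all windows. Both of these windows precede a later start site and lie inside the spans of their genes. The Igfbp7 stretch held the Sp1 motif 4 times, and 5 of the 10 windows held it at least once, against 35.7% of all windows. A TATA box, searched as TATAAA on the gene's strand only, stood at -28 in Igfbp4 and in 8.32% of all windows. The FoxO motif GTAAACA was in 0 of the 10 windows and in 3.65% of all windows. None of the matches in the 10 windows overlapped another. A match describes letters and no binding, and Irs1 and Igfbp5, the genes with the TEAD motif, had fold changes of opposite sign (0.92 and -1.51 on the log2 scale).

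Igf1 (ENSMUSG00000020053, chr10:87858265-87937042, plus strand, GRCm38), the ligand, had a mean of 47.8 ± 48.2 CPM (SD, n = 6) in KPF GFP+ and 9.62 ± 5.88 CPM (SD, n = 3) in KPYYF Tm+ cells. It stood at 7.49, 19.5, 49.4, 140, 48.8 and 21.6 CPM in KPF 4269, 4435, 4504h, 4504s, 4515 and 4601. It stood at 16.4, 6.78 and 5.70 CPM in KPYYF 4449, 4891 and 4938. KPF 4269 was as low as the KPYYF libraries, KPF 4504s was far above all others, and the groups overlapped through KPF 4269 alone. For KPYYF over KPF cells, the log2 fold change was -2.31 ± 0.85 (SE, 95% interval -4.16 to -0.46, 6 and 3 libraries), with an adjusted p of 0.203 in edgeR, 0.0285 in DESeq2 and 0.358 in limma-voom. The exact permutation test on the difference in mean log2 CPM gave p = 0.0833 (two-sided), where 0.0119 is the smallest p that 6 against 3 libraries allow. Without KPF 4504s the log2 fold change was -1.60 (edgeR adjusted p = 0.313), and with 4504h and 4504s summed it was -1.97 (edgeR adjusted p = 0.236). It was -2.30 (edgeR adjusted p = 0.198) without the 3 libraries high in acinar or immune markers, and -2.86 (edgeR adjusted p = 0.191) among the libraries with over 1000 Xist reads. In bulk libraries, fewer cells of a type and less RNA per cell cannot be told apart. The 12 fibroblast and pericyte markers, of which 10 had a read in every library and Col1a1 was the most abundant, summed to 449 CPM in KPF 4269, where Igf1 was lowest in its group, and to 5694 CPM in KPF 4504s, where it was highest. In the KPYYF libraries the same sum was 1380, 3134 and 1153 CPM, within the KPF range, and 6 of these markers had positive and 6 negative fold changes. The 12 immune markers summed to 10894 CPM in KPF 4601, where Igf1 was at 21.6 CPM, and to 2881 CPM in KPF 4504s. The part of fibroblasts or immune cells in the level of Igf1 was not tested.

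**Figure D2:**
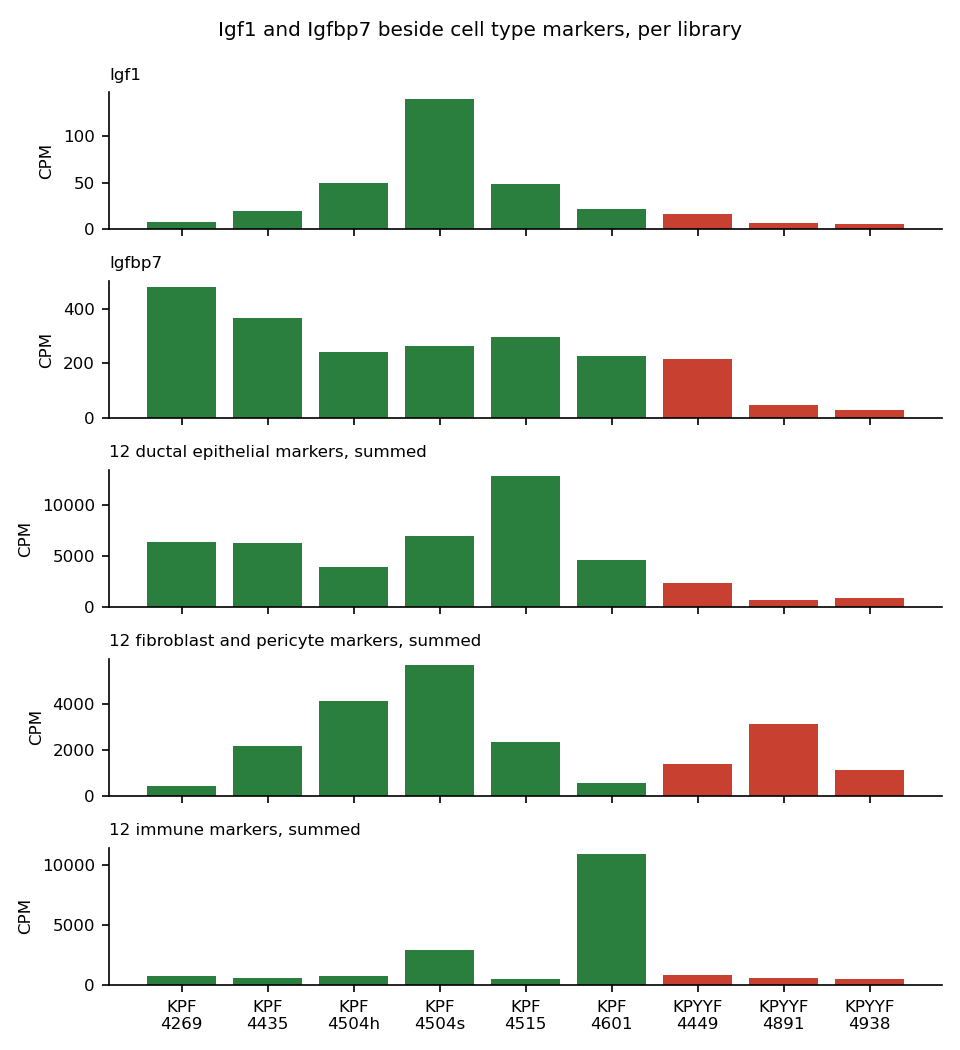
Level of Igf1 and Igfbp7 and the summed levels of 12 ductal epithelial, 12 fibroblast and pericyte and 12 immune markers, in CPM (vertical axes, bars from 0), for the 6 KPF GFP+ libraries (green) and the 3 KPYYF Tm+ libraries (red). KPF 4504s is highest in both Igf1 (140 CPM) and fibroblast markers (5694 CPM), and the ductal sum is at most 2372 CPM in each KPYYF library.

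The receptors did not pass the test. Igf1r (ENSMUSG00000005533, chr7:67952827-68233668, plus strand), the receptor for both IGFs, stood at 152, 64.1, 139, 69.9, 153 and 73.9 CPM in KPF 4269, 4435, 4504h, 4504s, 4515 and 4601. In KPYYF 4449, 4891 and 4938 it stood at 139, 123 and 95.6 CPM. In 3 KPF libraries it was between 139 and 153 CPM and in the other 3 between 64.1 and 73.9 CPM, and each KPYYF library lay within that range. On the log2 scale the fold change was 0.13 ± 0.35 (SE, 95% interval -0.63 to 0.89, edgeR adjusted p = 0.905), and the exact permutation p was 0.524. The interval spans less than 1 log2 unit on either side of 0. Without the 3 high-marker libraries the fold change turned to -0.19, and leaving out single libraries moved it between 0.01 and 0.28.

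Insr (ENSMUSG00000005534, chr8:3122061-3279617, minus strand), the insulin receptor, stood at 57.5, 22.5, 22.6, 28.0, 23.4 and 26.8 CPM in the KPF libraries in the same order. It stood at 48.0, 22.7 and 52.5 CPM in the KPYYF libraries. KPF 4269 had the highest level of all 9 and KPYYF 4891 was among the low ones. The log2 fold change was 0.45 ± 0.42 (SE, 95% interval -0.46 to 1.35), with an edgeR adjusted p of 0.667 and an exact permutation p of 0.393. It was 0.29 without the 3 high-marker libraries, 0.76 among the libraries with over 1000 Xist reads, 0.74 without KPF 4269 or without KPYYF 4891, and 0.23 without KPYYF 4938. Within a library, the log2 ratio of Igf1r to Insr was 1.83 ± 0.64 (SD, n = 6) in KPF and 1.61 ± 0.78 (SD, n = 3) in KPYYF cells, a difference of -0.22 (exact permutation p = 0.548) that turned to 0.15 without KPYYF 4938.

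The fold changes of the substrates had opposite signs, and neither passed the test. Irs1 (ENSMUSG00000055980, chr1:82233101-82291416, minus strand), a scaffold of both receptors, stood at 43.4, 19.1, 61.8, 23.4, 23.1 and 13.4 CPM in the KPF libraries. In the KPYYF libraries it stood at 86.6, 53.0 and 34.7 CPM. KPYYF 4449 was the highest of all, but KPF 4504h exceeded KPYYF 4891 and 4938. For KPYYF over KPF cells, the log2 fold change was 0.92 ± 0.48 (SE, 95% interval -0.12 to 1.96), with an edgeR adjusted p of 0.374 and an exact permutation p of 0.107. It was 0.51 without KPYYF 4449 and 0.29 without the 3 high-marker libraries.

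Irs2 (ENSMUSG00000038894, chr8:10984681-11008458, minus strand), the second scaffold and itself a FoxO target in liver, stood at 234, 140, 71.5, 104, 244 and 201 CPM in the KPF libraries. It stood at 103, 142 and 23.5 CPM in the KPYYF libraries. Only KPYYF 4938 lay below every KPF library. On the log2 scale the fold change was -0.89 ± 0.53 (SE, 95% interval -2.05 to 0.27), with an edgeR adjusted p of 0.455 and an exact permutation p of 0.143. It was -1.39 without KPYYF 4891, -0.43 without KPYYF 4938 and -0.22 among the libraries with over 1000 Xist reads. The log2 ratio of Irs1 to Irs2 reads within a library was -2.43, -2.86, -0.21, -2.15, -3.39 and -3.88 in the KPF libraries and -0.26, -1.42 and 0.56 in the KPYYF libraries. The group means were -2.49 ± 1.28 (SD, n = 6) and -0.37 ± 0.99 (SD, n = 3), a difference of 2.12. The exact permutation p was 0.0595, and 0.107 after Benjamini-Hochberg adjustment over the 3 ratios tested. KPF 4504h, at -0.21, lay inside the KPYYF range, and leaving out single libraries moved the difference between 1.65 and 2.64. It was 1.37 (exact permutation p = 0.3) among the libraries with over 1000 Xist reads. With 4504h and 4504s summed it was 2.34 (exact permutation p = 0.0536).

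**Figure D3:**
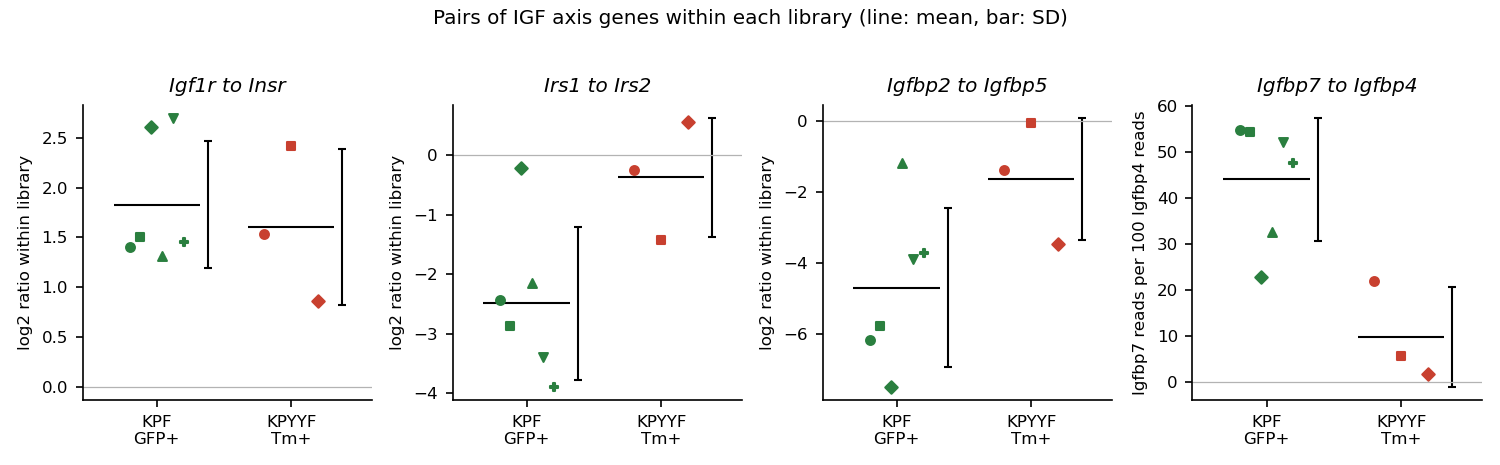
Ratios of 2 IGF axis genes within each library, for the 6 KPF GFP+ (green) and 3 KPYYF Tm+ libraries (red): the first 3 panels give log2 ratios and the last gives Igfbp7 reads per 100 Igfbp4 reads; symbols are libraries, lines means and bars SDs. The Irs1 to Irs2 ratio had a mean of -2.49 in KPF and -0.37 in KPYYF libraries, with KPF 4504h inside the KPYYF range.

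Among the binding proteins, Igfbp7 (ENSMUSG00000036256, chr5:77349240-77408041, minus strand) differed most clearly by library. It is a secreted protein of the vascular basement membrane that binds IGFs weakly. It stood at 478, 366, 240, 264, 297 and 227 CPM in KPF 4269, 4435, 4504h, 4504s, 4515 and 4601. It stood at 218, 50.2 and 28.7 CPM in KPYYF 4449, 4891 and 4938. The highest KPYYF library lay below the lowest KPF library, but KPYYF 4449 was close to KPF 4601 while the other two were far lower. The means were 312 ± 95.1 CPM (SD, n = 6) and 98.9 ± 104 CPM (SD, n = 3), and the log2 fold change was -1.66 ± 0.57 (SE, 95% interval -2.89 to -0.42). The adjusted p was 0.173 in edgeR, 0.0259 in DESeq2 and 0.0240 in limma-voom. The exact permutation p was 0.0119, the smallest that 6 against 3 libraries allow, with 4504h and 4504s counted apart. Without KPYYF 4449 the log2 fold change was -2.98 with an edgeR adjusted p of 0.0117, in a fit that called 1.43% of genes lower and 0.542% higher. It was -3.09 (edgeR adjusted p = 0.0161) without the 3 libraries high in acinar or immune markers. Among the libraries with over 1000 Xist reads it was -1.56 (edgeR adjusted p = 0.396). Over all alternatives the adjusted p ran from 0.0117 to 0.396.

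The ductal epithelial marker sum was lower in each KPYYF than in each KPF library, as Igfbp7 was, but within the groups the order differed. KPYYF 4449 was highest in both, while KPYYF 4938 had less Igfbp7 and a larger ductal sum than KPYYF 4891 (911 against 688 CPM), and KPF 4515 had the largest ductal sum (12765 CPM) with 297 CPM of Igfbp7. Endothelial cells are also known to make Igfbp7. The 10 endothelial markers summed to 24.5 to 104 CPM in KPF and 23.3 to 46.4 CPM in KPYYF libraries. The lowest KPF sum was in KPF 4269, which had the most Igfbp7, while KPF 4435, with 366 CPM of Igfbp7, had a sum of 102 CPM. Of these markers Esam was the most abundant and Tek, Cldn5 and Vwf were at 3 reads or fewer in each KPYYF library. The part of ductal or endothelial RNA in the level of Igfbp7 was not tested. Igfbp7 overlaps the gene Polr2b on the opposite strand (5230 reads over the 9 libraries), and the strand setting of the counting is not given in the sources used here. Among 8899 genes with a mean of at least 10 CPM, the log2 CPM of Fah (Pearson r = 0.982), Ephx2 (r = 0.981) and Entpd2 (r = 0.980) followed Igfbp7 most closely over the 9 libraries, which share group, depth and marker differences.

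Igfbp4 (ENSMUSG00000017493, chr11:99041244-99054392, plus strand), a binding protein that inhibits IGF action and is cleaved by PAPP-A, stood at 873, 673, 1057, 811, 570 and 476 CPM in the KPF libraries. It stood at 988, 892 and 1561 CPM in the KPYYF libraries. KPF 4504h exceeded both KPYYF 4449 and 4891, and the other KPF libraries lay below all 3. The log2 fold change was 0.63 ± 0.29 (SE, 95% interval -0.00 to 1.26), with an edgeR adjusted p of 0.312 and an exact permutation p of 0.0833. It was 0.34 without KPYYF 4938. Since Igfbp4 was on the higher and Igfbp7 on the lower side, their proportion differed: there were 54.7, 54.4, 22.7, 32.6, 52.1 and 47.6 Igfbp7 reads per 100 Igfbp4 reads in the KPF libraries and 22.1, 5.63 and 1.84 in the KPYYF libraries. This pair was chosen after the values were seen, so that the proportion carries no test. Summed, the 5 binding proteins ran from 735 to 1416 CPM in KPF and from 951 to 1711 CPM in KPYYF libraries, so that these sums overlapped.

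Igfbp2 and Igfbp5 are neighbours on chromosome 1, transcribed towards each other with 5457 bases between them. Igfbp5 (ENSMUSG00000026185, chr1:72857932-72874884, minus strand), a binding protein of the extracellular matrix, stood at 57.5, 50.9, 39.6, 32.1, 47.0 and 21.7 CPM in the KPF libraries. In KPYYF 4449, 4891 and 4938 it stood at 0.356, 3.28 and 39.9 CPM. KPYYF 4449, with 3 reads, and KPYYF 4891 were far below every KPF library, and KPYYF 4938 was within the KPF range. For KPYYF over KPF cells, the log2 fold change was -1.51 ± 1.00 (SE, 95% interval -3.71 to 0.68), with an edgeR adjusted p of 0.506 and an exact permutation p of 0.0476. Without KPYYF 4938 it was -4.49 (edgeR adjusted p = 0.0577), and without KPYYF 4449 it was -0.94.

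Igfbp2 (ENSMUSG00000039323, chr1:72824503-72852474, plus strand), a binding protein of fetal and tumour tissue, was near the limit of these libraries. It had 6, 7, 0, 123, 27 and 10 reads in the KPF libraries and 0, 29 and 31 in the KPYYF libraries. More than 100 of its 233 reads came from KPF 4504s. On the log2 scale the fold change was -0.58 ± 1.75 (SE, 95% interval -4.36 to 3.19), with an edgeR adjusted p of 0.916 and an exact permutation p of 0.964. It turned to 0.97 without KPF 4504s and to 1.62 without the 3 high-marker libraries, and at this depth no difference could be shown. The log2 ratio of Igfbp2 to Igfbp5 was -4.70 ± 2.24 (SD, n = 6) in KPF and -1.63 ± 1.73 (SD, n = 3) in KPYYF cells, a difference of 3.07 (exact permutation p = 0.0714, adjusted p = 0.107 over the 3 ratios). Where Igfbp2 had 0 reads, in KPF 4504h and KPYYF 4449, the ratio depends on the prior count. With a prior count of 0.5 the difference was 3.01 (exact permutation p = 0.155, adjusted p = 0.232). Leaving out single libraries moved it between 2.27 and 3.98.

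Igfbp6 (ENSMUSG00000023046, chr15:102144362-102149511, plus strand), which prefers IGF2 over IGF1, stood at 7.49, 16.5, 20.6, 35.4, 11.4 and 9.04 CPM in the KPF libraries. It stood at 2.26, 2.41 and 78.1 CPM in the KPYYF libraries. The lowest levels of all 9 libraries and the highest were both in KPYYF cells. The log2 fold change was 0.72 ± 0.96 (SE, 95% interval -1.39 to 2.83), with an edgeR adjusted p of 0.784 and an exact permutation p of 0.5. It turned to -2.84 (edgeR adjusted p = 0.180) without KPYYF 4938, the library in which Igfbp5 was also high for its group. It was 1.55 without the 3 high-marker libraries, 0.22 among the libraries with over 1000 Xist reads, 1.13 without KPF 4504s and 1.27 without KPYYF 4449 or without KPYYF 4891.

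**Figure D4:**
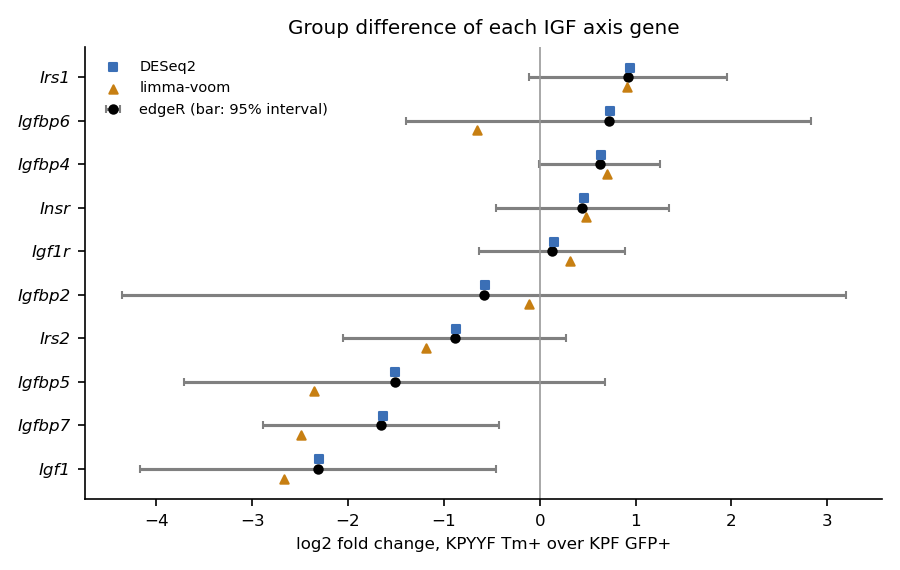
Log2 fold change of KPYYF Tm+ over KPF GFP+ cells (horizontal axis) for the 10 IGF axis genes from edgeR (circles, with 95% intervals), DESeq2 (squares) and limma-voom (triangles). The intervals of Igf1 and Igfbp7 lie below 0, those of the other 8 genes include it, and limma-voom places Igfbp6 at -0.65, on the other side of 0 from edgeR.

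The ligands, receptors and carriers around these genes were given by a list of 17, of which 12 were tested and 0 passed an adjusted p of 0.05 in edgeR. At an unadjusted p under 0.05, 2 were higher and 3 lower, beside 6.1% and 10% of all genes, and the median log2 fold change was 0.20 against -0.07 over all genes. Igf2r, the clearance receptor for IGF2, stood at 27.4 to 97.0 CPM in KPF libraries and at 118, 138 and 147 CPM in KPYYF libraries, with no overlap. Its log2 fold change was 1.41 ± 0.37 (SE), with an adjusted p of 0.0932 in edgeR, 0.0172 in DESeq2 and 0.0444 in limma-voom. Igfbp3, the main carrier of IGFs in serum, stood at 83.2 to 594 CPM in KPF and at 9.97, 21.2 and 69.5 CPM in KPYYF libraries, also with no overlap. Its log2 fold change was -3.03 ± 0.75 (SE), with an adjusted p of 0.0914 in edgeR, 4.57e-05 in DESeq2 and 0.0869 in limma-voom. Separated groups were found for 3.92% of all genes in the higher and 5.18% in the lower direction. In each KPYYF library Igf2r was thus above the whole KPF range, and Igfbp3 and Igfbp7 were below it.

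Igf2, the fetal ligand, stood at 0.584 to 37.0 CPM in KPF libraries and at 24.3, 570 and 19.8 CPM in KPYYF libraries. Its log2 fold change of 4.21 ± 1.45 (SE, edgeR adjusted p = 0.198) rested on KPYYF 4891 and was 1.00 without it, against 5.76 without the 3 high-marker libraries. Pappa, the protease that cleaves IGFBP4, had 34, 211, 236, 141, 101 and 6 reads in KPF and 1, 4 and 0 reads in KPYYF libraries. It was lower in KPYYF cells at an edgeR adjusted p of 0.0631, which does not pass, with 2.55e-05 in DESeq2 and 0.289 in limma-voom. Ins1, one of the insulin genes, had 63, 18, 0, 52, 7 and 20 reads in KPF and 1, 0 and 1 in KPYYF libraries. No fold is given for Pappa and Ins1 because their KPYYF levels are around or under the limit of 3 reads. Igfbp1, a carrier made by liver, had 49 of its 50 reads in KPF 4601 and was not tested. The islet markers, Chga being the most abundant, summed to 2.45 to 84.7 CPM in KPF and 2.63 to 20.4 CPM in KPYYF libraries.

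The adaptors and brakes that act on the receptors and on IRS proteins were 18 genes, all tested and 0 called in edgeR. At an unadjusted p under 0.05, 2 were higher and 3 lower, beside 6.1% and 10% of all genes, and the median log2 fold change was -0.22. Grb10, an adaptor that inhibits both receptors, stood at 4.66 to 71.8 CPM in KPF and at 0.237, 1.42 and 2.96 CPM in KPYYF libraries. Its log2 fold change was -4.35 ± 1.16 (SE), with an adjusted p of 0.102 in edgeR, 0.00012 in DESeq2 and 0.403 in limma-voom. Ptprf, a receptor phosphatase, had a log2 fold change of -1.77 (adjusted p = 0.0896 in edgeR, 0.00294 in DESeq2 and 0.0281 in limma-voom). The exchange factor Sos1 and the adaptor Sh2b3 were at 0.90 and 1.03 (edgeR adjusted p = 0.204 and 0.231). The groups did not overlap for 2 of the 18 genes in the higher and 3 in the lower direction, beside 3.92% and 5.18% of all genes. Grb10, Ptprf, Sos1 and Sh2b3 were among these.

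The PI3-kinase, Akt and mTOR list held 25 genes, all tested and 0 called in edgeR, with 15 positive and 10 negative fold changes and a median of 0.09. Of these, 2 were higher and 2 lower at an unadjusted p under 0.05, beside 6.1% and 10% of all genes. The groups did not overlap for 1 gene in the higher and 2 in the lower direction, beside 3.92% and 5.18% of all genes. Foxo1, the transcription factor that Akt restrains, stood at 73.9 to 137 CPM in KPF and at 45.0, 58.3 and 38.6 CPM in KPYYF libraries, with no overlap. Its log2 fold change was -1.24 ± 0.31 (SE), with an adjusted p of 0.0777 in edgeR, 0.00554 in DESeq2 and 0.149 in limma-voom. The regulatory subunit Pik3r2 was at -0.83 (edgeR adjusted p = 0.267), and the kinase Akt2 at 0.72 (edgeR adjusted p = 0.254), which was 0.40 without KPYYF 4891 and 1.20 without the 3 high-marker libraries. Of 16 FoxO target genes 0 were called in edgeR, 1 was higher and 1 lower at an unadjusted p under 0.05, beside 6.1% and 10% of all genes, and the median was 0.14. The higher gene was Sod2 and the lower Gadd45a. Sod2 stood at 51.5 to 104 CPM in KPF and at 137, 142 and 144 CPM in KPYYF libraries. Its log2 fold change was 1.03 (adjusted p = 0.0952 in edgeR, 0.0153 in DESeq2 and 0.09 in limma-voom). The stress gene Gadd45a was at -1.92 (adjusted p = 0.185 in edgeR, 0.0455 in DESeq2 and 0.130 in limma-voom), and at -3.00 without KPYYF 4449 and -3.14 without the 3 high-marker libraries. Txnip was at -0.58, but at -0.14 without KPF 4269, -1.29 without KPYYF 4449, -0.20 without KPYYF 4938 and -1.48 without the 3 high-marker libraries. Sesn1 was at 1.09, but at 0.18 without KPYYF 4449 and 0.46 without the 3 high-marker libraries. Pdk4, with few reads, was at 1.42, but at 2.95 without KPF 4269 and 0.83 without the 3 high-marker libraries.

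**Figure D5:**
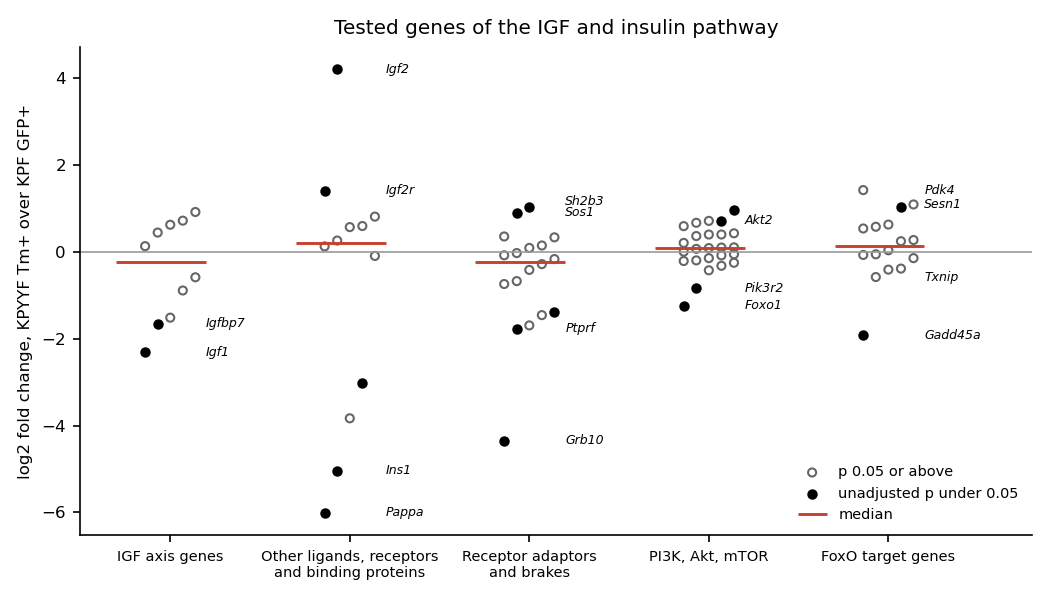
Log2 fold change of KPYYF Tm+ over KPF GFP+ cells (vertical axis) for each tested gene of the 10 IGF axis genes and 4 lists around them; each point is 1 gene, filled where the unadjusted edgeR p was under 0.05, and the red line is the list median. The medians lie between -0.23 and 0.20, and the fitted values drawn for Ins1 and Pappa, with at most 4 reads in each KPYYF library, are no estimates of their size.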

How the data were processed

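Sorted PDAC cells of 6 KPF and 3 KPYYF samples were profiled by QuantSeq 3′ Fwd sequencing, which reads 1 end of each transcript. Per the submitters' processing notes, reads were aligned with STAR to mm10 and counted with HTSeq. Versions, annotation and strand setting are not given in the sources used here. The deposited files hold raw read counts per Ensembl gene, made by the authors without normalization. Of all counted reads, 37.3% to 42.0% were on genes, 43.8% to 53.4% were not unique, 8.63% to 16.0% met no feature and 0.231% to 0.312% were ambiguous, and these last classes were left out of library sizes and tests. The groups did not overlap in the share on genes (38.5% to 42.0% in KPF, 37.3% to 38.2% in KPYYF libraries). Nor did they overlap in the share not unique (43.8% to 48.5% in KPF, 49.2% to 53.4% in KPYYF libraries). Symbols were found for 47224 of 47643 genes, and positions come from GENCODE on GRCm38.

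Counts were scaled by TMM (factors 0.833 to 1.08) and tested with edgeR 4.0.16 (quasi-likelihood, robust, R 4.3.3) over genes with at least 100 reads in all, with Benjamini-Hochberg adjustment over 14105 genes and a threshold of 0.05. All 9 libraries entered, with no covariate. The common biological coefficient of variation was 0.825. Log2 CPM used a prior count of 2. Exact permutation tests were two-sided and enumerated all 84 assignments of the libraries to groups. The calculation was checked against scipy 1.17.1 on random numbers. DESeq2 1.42.0, limma-voom (limma 3.58.1) with quality weights, other scalings and filters, the sum of 4504h and 4504s, the libraries with over 1000 Xist reads, and each library left out were alternatives. The paper itself used DESeq2. The p-values measure the spread between libraries. They count 4504h and 4504s as 2 libraries, though these share a mouse number and part of the KPF spread may lie within 1 mouse. The fits were tested on simulated data first.

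Named outside the 10 genes are Yap1, Igf2, Igf2r, Igfbp1, Igfbp3 and, of each pathway list, the genes past an adjusted p of 0.05 or otherwise the 2 largest rises and falls by log2 fold change, with 3 genes most like the member of smallest p. One gene that this rule takes and one allele of the mice are not reported here. Sod2 stands outside the rule and is named as the FoxO target of smallest p. The members and lists were chosen with earlier results of these data known.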

Additional observations from a re-analysis of the deposited data

Results flagged for a closer look

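Some values stood far from the rest of their group by Dixon's test, which was run on 32 groups and by chance marks about 1 in 20. In KPF 4504s, Igf1 reached 140 CPM where the next highest KPF library had 49.4 CPM, and Igfbp2 reached 14.0 CPM where the next had 2.99 CPM. In KPF 4269, Insr reached 57.5 CPM (next 28.0 CPM), Igf2r 97.0 CPM (next 53.3 CPM) and Pdk4 5.16 CPM (next 1.25 CPM). In KPF 4601, Gadd45a was low at 18.5 CPM (next 45.5 CPM) and Igfbp1 stood at 7.14 CPM (next 0.114 CPM). KPF 4504s had the highest acinar and fibroblast marker sums, and KPF 4601 the highest immune marker sum; their part in these values was not tested. The KPYYF group, with 3 libraries, is too small for this test.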

How the results depend on the processing

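Over 18 alternatives and 28 genes taken by the naming rule, 500 values were computed: 469 kept their direction and side of the threshold, 23 passed the threshold where the reported value did not, 2 (both Yap1) no longer passed it and 6 reversed. Of the 10 IGF axis genes, 7 kept their direction throughout. Igf1r turned to -0.19 and Igfbp2 to 1.62 without the 3 libraries high in acinar or immune markers, and Igfbp6 to -0.65 by limma-voom. Leaving out single libraries moved Igfbp2 between -1.04 and 0.97, Igfbp6 between -2.84 and 1.27, and the Igf1r to Insr ratio between -0.63 and 0.15. Txnip turned to 0.40 in the libraries with over 1000 Xist reads. The causes were not tested.

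The 0 calls in each list became, by DESeq2, 2 lower among the 10 genes, 1 higher and 3 lower among the other ligands, receptors and carriers, 3 lower among the adaptors, 1 lower in the PI3-kinase list and 1 higher and 1 lower among FoxO targets, where that fit called 1.91% of all genes higher and 6.58% lower. By limma-voom there were 1 lower, 1 higher and 1 lower in the first 3 of these lists (all genes 0.312% higher and 0.276% lower). Without a filter there were 1 higher and 1 lower among ligands, receptors and carriers and 1 lower among adaptors (all genes 0.384% higher and 0.955% lower). With 4504h and 4504s summed, each list stayed at 0 calls (all genes 0.177% higher and 0.61% lower). Adaptors had 1 lower in the libraries with over 1000 Xist reads (all genes 0.237% lower), and both the 10 genes and the adaptors had 1 lower without the 3 high-marker libraries (all genes 1.36% lower). Leaving out single libraries gave 0 to 1 calls, where 0.0433% to 0.542% of all genes were called higher and 0.0936% to 1.43% lower: Igfbp7 and Ptprf lower without KPYYF 4449, Igf2r higher without KPF 4269, and Pappa lower and Sod2 higher without KPF 4601. No paired analysis was possible because the groups come from different mice and their labels share no mouse number. With 3 KPYYF libraries that spread widely, changes of the size of most intervals above could not be shown or set aside.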
